A study of Mus musculus with 15 samples.

Results

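The genes described here encode the proteins of the mitochondrial ribosome, measured as RNA in the gastrocnemius, the large calf muscle, of mice with and without the mitochondrial deacetylase Sirt3 that were fed a calorie restricted (CR) or a control diet. Members were the probe sets whose single gene symbol in the platform annotation has the form Mrpl or Mrps followed by a number and at most 1 letter, with 1 probe set kept per gene, the one with the highest mean over the 15 arrays. This gave 77 of the 19938 named genes on the array, from 85 probe sets, and all 77 were among the 12056 genes that passed the filter on low values and were tested. The 15 male C57BL/6 mice were 12 months old and each was measured on 1 Affymetrix array. They fell into 4 groups: Sirt3 knockout on CR (4 mice), Sirt3 knockout on control diet (4 mice), wildtype on CR (4 mice) and wildtype on control diet (3 mice). The sources used here do not say how the Sirt3 allele was made, in which cells it is lost, or by how much calories were restricted. All values are log2 array intensities and all differences are log2 differences, so they rank 1 probe set across arrays and do not rank genes by abundance.

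The mitochondrial ribosome translates the few messenger RNAs that mitochondrial DNA encodes, all of them for core subunits of the oxidative phosphorylation complexes. Its RNAs come from mitochondrial DNA, whereas its proteins are encoded in the nucleus, made in the cytosol and imported, so a balanced supply of many nuclear transcripts is needed in a tissue such as muscle that depends on respiration. Some of the proteins have counterparts in the bacterial ribosome, and others are found in mitochondria only. Mrpl10, a protein of the stalk of the large subunit, has been reported as a substrate that SIRT3 deacetylates, and Mrpl12 is its partner in that stalk. The symbols do not always give the place: Mrps30 and Mrps18a lie in the large subunit in mammalian structures, and Mrps36 is now assigned to the alpha-ketoglutarate dehydrogenase complex.

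Promoter sequence was looked at because the values of many members moved together across arrays. RefSeq promoters of assembly GRCm38.p6, 250 bases before to 50 bases after the start of the gene, were matched for 68 of the 77 members. The letters searched, on both strands, were CGCANGCG for NRF1, CCGGAAG for GABPA, ATGGCGGC for YY1 and TATAAA for the TATA box. NRF1 and GABPA are transcription factors known for nuclear genes of mitochondrial function, and YY1 is a widely expressed zinc finger factor. The promoters that follow belong to members that the comparisons turn on: Mrps2, Mrpl50, Mrpl37 and Mrps26 had the smallest p values among members between knockout and wildtype on control diet together with Mrpl15, Mrps11 had the smallest in the interaction, Mrpl57 the smallest for CR in the knockout, and Mrpl46 starts next to Mrps11. Capitals mark the NRF1, GABPA or YY1 letters, and TATA box letters are left in lower case. The Mrps2 window is chr2:28467816-28468115, plus strand, Mrpl50 is chr4:49521034-49521333, minus strand, Mrpl37 is chr4:107066817-107067116, minus strand, and Mrps26 is chr2:130563507-130563806, plus strand. Mrps11 is chr7:78782881-78783180, plus strand, Mrpl46 is chr7:78783040-78783339, minus strand, and Mrpl57 is chr14:57825989-57826288, plus strand.
Mrps2: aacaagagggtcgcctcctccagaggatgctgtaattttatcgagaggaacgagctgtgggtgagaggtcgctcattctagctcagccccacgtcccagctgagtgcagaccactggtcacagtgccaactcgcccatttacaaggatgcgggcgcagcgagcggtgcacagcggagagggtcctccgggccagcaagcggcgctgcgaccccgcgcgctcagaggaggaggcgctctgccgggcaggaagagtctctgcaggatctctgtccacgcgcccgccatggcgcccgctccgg
Mrpl50: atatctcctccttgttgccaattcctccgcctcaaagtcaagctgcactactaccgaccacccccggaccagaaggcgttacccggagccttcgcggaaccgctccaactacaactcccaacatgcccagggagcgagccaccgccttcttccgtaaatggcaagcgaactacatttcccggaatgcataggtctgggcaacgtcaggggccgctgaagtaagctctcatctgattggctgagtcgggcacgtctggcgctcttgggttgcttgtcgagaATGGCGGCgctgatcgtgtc
Mrpl37: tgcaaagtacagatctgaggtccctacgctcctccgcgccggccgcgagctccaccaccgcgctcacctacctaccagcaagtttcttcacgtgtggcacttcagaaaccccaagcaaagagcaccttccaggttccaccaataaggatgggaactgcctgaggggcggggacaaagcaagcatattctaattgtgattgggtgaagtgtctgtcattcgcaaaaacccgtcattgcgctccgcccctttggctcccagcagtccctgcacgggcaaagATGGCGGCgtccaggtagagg
Mrps26: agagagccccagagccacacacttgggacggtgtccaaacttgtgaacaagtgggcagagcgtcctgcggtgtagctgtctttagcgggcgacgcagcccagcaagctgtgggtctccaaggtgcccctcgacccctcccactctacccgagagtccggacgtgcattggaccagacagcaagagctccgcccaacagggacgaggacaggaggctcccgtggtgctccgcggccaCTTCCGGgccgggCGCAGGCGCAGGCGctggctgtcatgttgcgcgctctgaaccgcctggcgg
Mrps11: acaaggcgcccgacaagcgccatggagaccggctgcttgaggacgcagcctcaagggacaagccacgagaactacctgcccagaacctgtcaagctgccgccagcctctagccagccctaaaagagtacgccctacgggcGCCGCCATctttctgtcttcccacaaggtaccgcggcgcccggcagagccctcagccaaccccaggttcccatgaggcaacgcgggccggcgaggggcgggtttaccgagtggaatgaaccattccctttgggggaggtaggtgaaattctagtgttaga
Mrpl46: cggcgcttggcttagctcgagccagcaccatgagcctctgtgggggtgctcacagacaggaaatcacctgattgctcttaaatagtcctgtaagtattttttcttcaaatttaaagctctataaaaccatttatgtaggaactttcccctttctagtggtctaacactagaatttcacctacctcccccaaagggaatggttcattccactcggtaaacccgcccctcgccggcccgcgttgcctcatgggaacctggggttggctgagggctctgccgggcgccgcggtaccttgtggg
Mrpl57: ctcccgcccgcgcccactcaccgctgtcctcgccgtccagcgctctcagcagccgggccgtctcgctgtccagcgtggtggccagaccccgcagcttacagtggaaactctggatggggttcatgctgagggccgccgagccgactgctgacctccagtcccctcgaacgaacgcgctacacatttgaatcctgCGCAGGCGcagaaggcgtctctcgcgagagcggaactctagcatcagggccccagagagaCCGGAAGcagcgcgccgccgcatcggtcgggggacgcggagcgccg

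None of the NRF1, GABPA or YY1 letters were in the Mrps2 or Mrpl46 windows. In Mrpl50 the YY1 letters began 31 bases after the start, and in Mrpl37 they began 30 bases after it. Mrps26 held the NRF1 letters at a pair of places next to the start and the GABPA letters 14 bases before it. Mrpl57 held NRF1 letters 56 bases before the start and GABPA letters 5 bases after it. Mrps11, of the small subunit, and Mrpl46, of the large subunit, are transcribed away from each other, and their starts lie 42 bases apart, so their windows hold partly the same DNA read on opposite strands. Over all matched members, 29.4% held the NRF1 letters, against 18.2% of the genes tested that had a promoter and 9.22% of all genes with a promoter. The GABPA letters were in 36.8% of members, against 18.2% of the genes tested and 9.93% of all genes. The YY1 letters were in 16.2% of members, against 5.47% and 2.6% in the same 2 sets, and at least 1 of these 3 was in 63.2% of members, against 35.4% and 18.8%. The TATA box letters were in 7.35% of members, against 9.24% of the genes tested and 15.7% of all genes. A gene on the opposite strand started within 1000 bases, pointing away, at 26 members or 38.2%, against 18.5% of the genes tested and 12.3% of all genes. These shares describe letters in the windows and say nothing of which factors bind in this muscle.

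**Figure D1:**
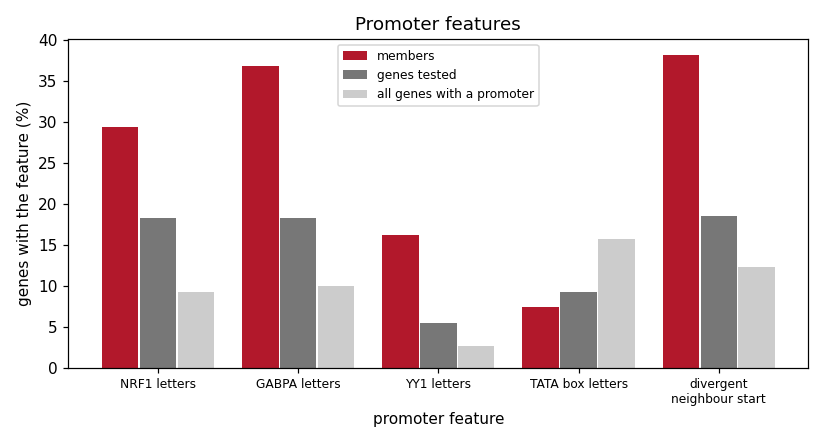
Share of genes (percent, y axis) whose RefSeq promoter held the letters searched or had a divergent neighbour starting within 1000 bases (x axis), for the 68 matched members, the genes tested and all genes with a promoter. Members hold the GABPA letters in 36.8% of promoters and have a divergent neighbour in 38.2%, against 18.2% and 18.5% of the genes tested.

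The Sirt3 probe set itself averaged 5.57 ± 0.49 in the 8 knockout mice and 6.52 ± 0.11 in the 7 wildtype mice (SD), a difference of -0.95 (exact permutation test over the 6435 splits, two-sided p = 0.000622). No knockout array reached the lowest wildtype array, since the values spanned 4.94 to 6.19 in knockout mice and 6.38 to 6.68 in wildtype mice. Muscle markers were at high levels on every array, with Ckm, the muscle creatine kinase, between 13.11 and 13.30. Markers also moved with the groups, and are given here as the median deviation of a list from its median over arrays. A list of 6 skeletal muscle genes separated the diets without overlap, by small steps: it spanned 0.01 to 0.05 in knockout CR, -0.12 to -0.03 in knockout control, 0.02 to 0.05 in wildtype CR and -0.14 to -0.05 in wildtype control. Several arrays carried transcripts of other tissues. A list of 12 male germ cell genes stood at 3.97 on knockout control 1 and at 4.50 on wildtype control 3. A list of 7 pancreas genes stood at -0.08 to 0.05 in knockout CR, -0.12 to 0.07 in knockout control and -0.13 to 0.15 in wildtype CR, against 0.63, 7.37 and 1.00 on the 3 wildtype control arrays, so it was above all other arrays in that whole group. A list of 9 liver genes stood at 2.97 on wildtype CR 4, 1.98 on knockout control 2, 1.75 on wildtype control 1 and 0.86 on knockout CR 1. The 4 arrays named below for transcripts of another tissue had the germ cell, pancreas or liver list above 2. The other arrays were not free of such transcripts. A list of 6 tendon genes spanned -0.82 to 0.01 in knockout CR, -0.23 to 0.08 in knockout control, -0.67 to 0.10 in wildtype CR and 0.29 to 0.51 in wildtype control. A list of 6 slow fibre genes spanned -0.34 to 0.29 in knockout CR and -0.4 to 0.58 in knockout control. It spanned -0.9 to 1.22 in wildtype CR and -0.17 to 0.95 in wildtype control. A list of 6 adipocyte genes spanned -0.11 to 1.06 in knockout CR and -0.19 to 0.36 in knockout control. It spanned -0.6 to 1.08 in wildtype CR and -0.56 to 0.07 in wildtype control. In a bulk muscle sample, fewer cells of a type and less RNA per cell cannot be told apart.

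The members were highest and lowest on 2 arrays, both from control-fed mice. The deviation of a member on an array is its value there minus its mean over arrays, and the median over the 77 members was highest on knockout control 3, at 0.18, where the median of all genes tested was 0.003. On that array 35 of the 77 members, or 45.5%, had their highest value of all 15 arrays, against 11.2% of all genes tested, and 70 members were above their own mean. These 35 included Mrpl10, Mrpl15, Mrpl37, Mrpl50, Mrps2, Mrps11, Mrps18b and Mrps36. The median was lowest on wildtype control 3, at -0.15, the array with the germ cell transcripts, and there the median of all genes tested was also low, at -0.10. On wildtype control 3, 27 of the 77 members had their lowest value, which is more than on any other array, and 26% of all genes tested had theirs there.

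Over mice, the members' median deviation averaged 0.002 ± 0.051 in knockout CR (n = 4), 0.05 ± 0.10 in knockout control (n = 4), 0.013 ± 0.048 in wildtype CR (n = 4) and -0.08 ± 0.063 in wildtype control (n = 3; SD throughout). In the knockout CR mice it was 0.0002, -0.02, -0.04 and 0.07, and in the knockout control mice -0.05, 0.06, 0.18 and 0.005. In the wildtype CR mice it was 0.03, 0.07, -0.03 and -0.01, and in the wildtype control mice -0.04, -0.04 and -0.15. The knockout control group overlapped knockout CR and wildtype CR through its replicates 2 and 4, and wildtype control through its replicate 1. All wildtype control arrays lay below 0, but so did 2 of 4 arrays in knockout CR and 2 of 4 in wildtype CR.

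**Figure D2:**
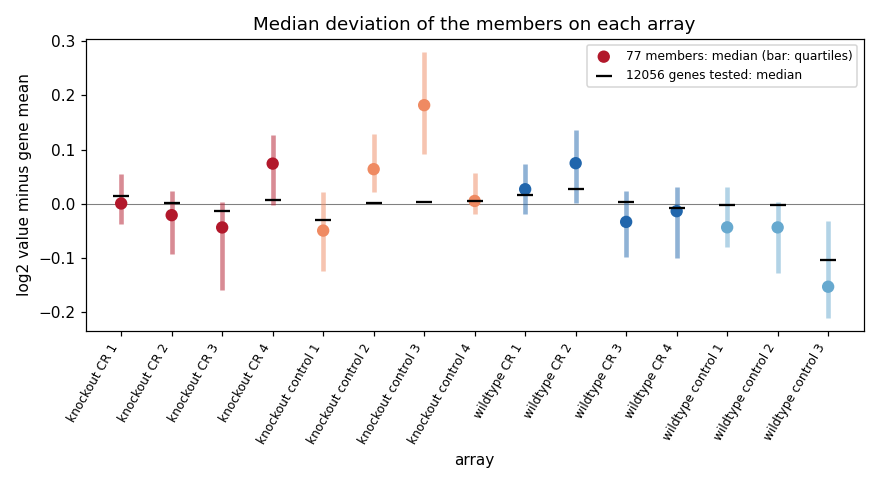
Median deviation of the 77 members from their own means (log2, y axis) on each of the 15 arrays (x axis), with bars from the lower to the upper quartile of members and black ticks for the median of the 12056 genes tested. Knockout control 3 stands at 0.18 with all genes at 0.003, and wildtype control 3 stands at -0.15 with all genes at -0.10.

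**Figure D3:**
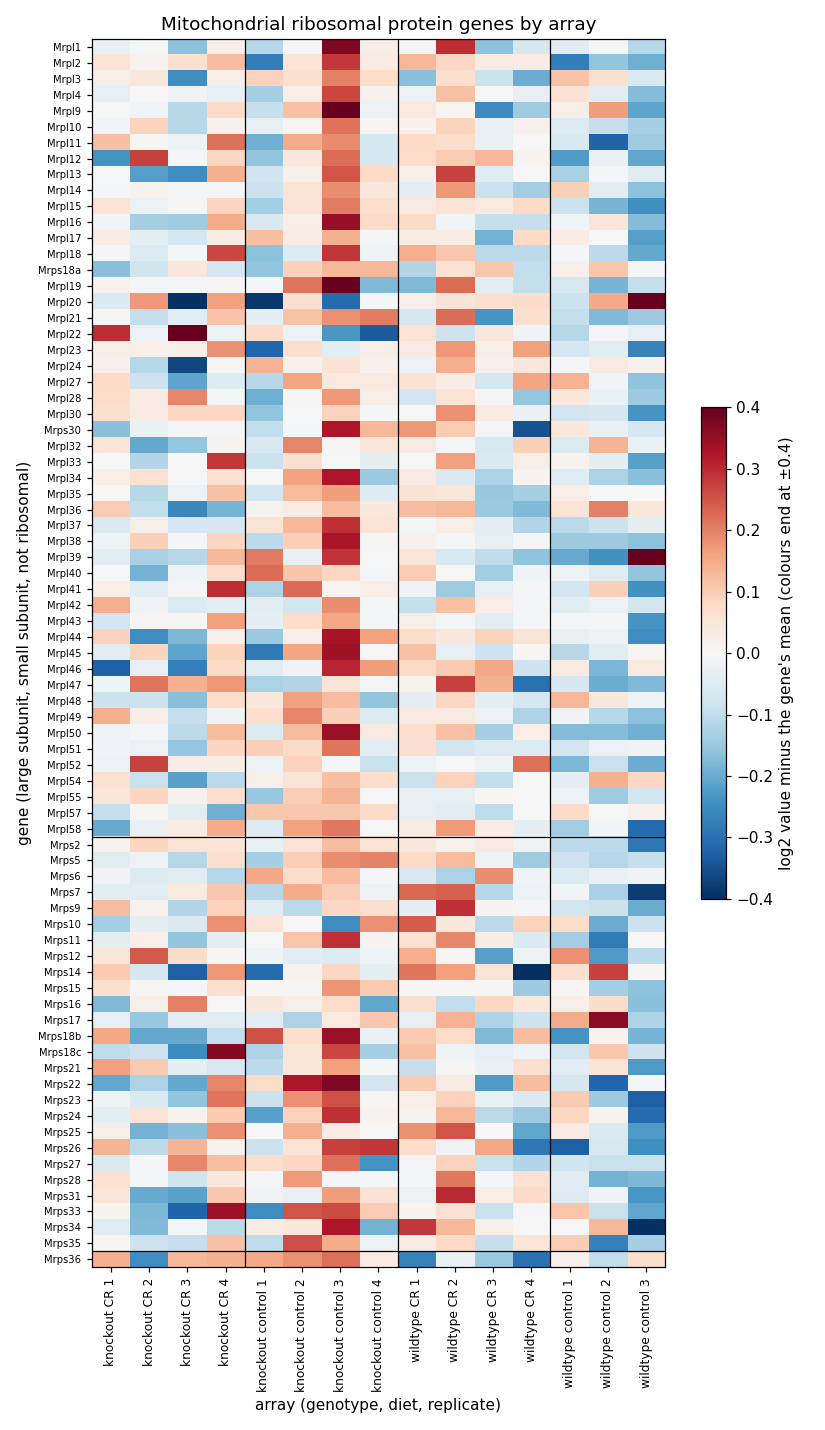
Value of each member minus its mean over arrays (log2, colour, ends at ±0.4) for the 77 members (y axis, large subunit, small subunit and Mrps36) on the 15 arrays (x axis, by group). The column of knockout control 3 is mostly above the mean, with 70 of 77 members, and the column of wildtype control 3 is mostly below it, with 12 of 77 members above.

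Knockout and wildtype mice were first compared on the control diet. Of the 77 members, 71 or 92.2% had a higher mean in knockout control than in wildtype control, against 57.6% of all genes tested, and the median difference was 0.12 over members and 0.02 over all genes. No member passed an adjusted p of 0.05 in limma, and neither did any other gene (0% of genes tested), with 0.599 as the smallest adjusted p of a member. At an unadjusted p under 0.05, 17 members were higher in the knockout, or 22.1%, against 5.08% of all genes, and 1 was lower, or 1.3%, against 1.94%. The groups did not overlap for 10 members that were higher in the knockout, or 13%, against 3.71% of all genes, and for 0 members that were lower, against 1.29%. Without knockout control 3, 65 members or 84.4% had a higher mean in the knockout, against 55.5% of all genes. There 8 members had an unadjusted p under 0.05, all higher, against 3.72% of all genes. Without wildtype control 3, it was 62 members or 80.5%, against 50.1% of all genes. There 11 members had an unadjusted p under 0.05, 10 higher and 1 lower, against 3.14% and 3.34% of all genes. That count was 9 without wildtype control 2, all higher, against 5.7% of all genes. It was 11 without knockout control 2, 10 of them higher, against 3.67% of all genes. In a fit of only the groups compared it was 7, all higher, against 2.85%. Without the 4 arrays that carried transcripts of another tissue, the median difference was 0.10 over members and 0.009 over all genes. The tendon list was lower in knockout control, at -0.23 to 0.08, than in wildtype control, at 0.29 to 0.51. The pancreas list was also lower, at -0.12 to 0.07 in knockout control, against 0.63 to 7.37 in wildtype control. Of the 6 slow fibre genes, 0 had a higher mean in knockout control. Their median difference was -0.38, and none had an unadjusted p under 0.05. The part of these lists in the result was not tested.

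Mrps2, the counterpart of a bacterial small subunit protein, had the smallest p of all members here. Its values were 7.93, 8.01, 8.08 and 8.01 in knockout control, against 7.85, 7.85 and 7.67 in wildtype control. Every knockout array was above every wildtype array, and wildtype control 3 was the lowest. The difference was 0.22 (SE 0.06, limma adjusted p = 0.599). Mrpl50, a mitochondria-specific protein of the large subunit, had values of 7.83, 8.01, 8.23 and 7.92 in knockout control, against 7.71, 7.71 and 7.69 in wildtype control. The groups did not overlap, the 3 wildtype arrays were nearly equal, and knockout control 3 was the highest. The difference was 0.30 (SE 0.09, limma adjusted p = 0.599). Mrpl37, another mitochondria-specific large subunit protein, had values of 9.21, 9.29, 9.45 and 9.21 in knockout control, against 9.05, 9.07 and 9.12 in wildtype control. These groups did not overlap either, and knockout control 3 was again the highest. The difference was 0.21 (SE 0.07, limma adjusted p = 0.599).

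Mrpl15, a large subunit protein with a bacterial counterpart, had values of 8.10, 8.29, 8.44 and 8.30 in knockout control, against 8.15, 8.05 and 7.99 in wildtype control. Knockout control 1 lay below wildtype control 1, so the groups overlapped. The difference was 0.22 (SE 0.07, limma adjusted p = 0.599). Mrps26, a mitochondria-specific small subunit protein, had the highest difference of all members, 0.35 (SE 0.12, limma adjusted p = 0.599). Its values were 6.00, 6.14, 6.36 and 6.37 in knockout control, against 5.76, 6.02 and 5.84 in wildtype control. The groups overlapped by the narrow margin between knockout control 1 and wildtype control 2. The members without overlap were Mrpl10, Mrpl21, Mrpl37, Mrpl38, Mrpl40, Mrpl50, Mrps2, Mrps6, Mrps28 and Mrpl57, the last of them with nearest values that were both 7.88.

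Only 6 members had a lower mean in knockout control, namely Mrpl20, Mrpl22, Mrpl36, Mrpl48, Mrps14 and Mrps17. Mrpl20, a large subunit protein with a bacterial counterpart, was the member with the unadjusted p under 0.05. It had 6.85, 7.30, 6.93 and 7.23 in knockout control, against 7.15, 7.39 and 7.74 in wildtype control. The difference was -0.35 (SE 0.16, limma adjusted p = 0.694), the groups overlapped, and the highest value was on wildtype control 3, where most other members were low.

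CR was next compared with control diet in the knockout mice, a comparison that uses the same knockout control arrays. Here 20 of 77 members, or 26%, had a higher mean on CR, against 53% of all genes tested, and the median difference was -0.07 over members and 0.01 over all genes. No member passed limma's adjusted p of 0.05, against 0.0664% of all genes, and the smallest adjusted p of a member was 0.225. At an unadjusted p under 0.05, 7 members were lower on CR, or 9.09%, against 5.17% of all genes, and 1 was higher, or 1.3%, against 6.79%. Groups without overlap were found for 4 members that were lower (Mrpl3, Mrpl37, Mrpl57 and Mrps6), against 3.08% of all genes, and for 1 that was higher (Mrps12), against 3.91%. Without knockout control 3, 32 members or 41.6% had a higher mean on CR, against 54.8% of all genes. There 2 members were lower and 1 higher at an unadjusted p under 0.05, against 3.75% and 5.72% of all genes. Without knockout CR 2, 3 were lower and 1 higher, against 4.01% and 5.62%. Without knockout CR 3, 2 were lower and 0 higher, against 3.6% and 5.22%. In these fits the shares of members were no higher than those of all genes. After quantile normalization of the deposited values, 37.7% of members had a higher mean on CR, against 55.5% of all genes. The skeletal muscle list was higher on CR, at 0.01 to 0.05, than on control diet, at -0.12 to -0.03, and its part in the result was not tested.

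Mrpl57, a small mitochondria-specific protein of the large subunit, had 7.71, 7.81, 7.76 and 7.61 in knockout CR, against 7.91, 7.91, 7.91 and 7.88 in knockout control. The groups did not overlap, and the control arrays were nearly equal, knockout control 3 among them. The difference was -0.18 (SE 0.05, limma adjusted p = 0.225). Mrpl37 had 9.10, 9.18, 9.09 and 9.09 in knockout CR, against 9.21, 9.29, 9.45 and 9.21 in knockout control. All CR arrays lay below all control arrays, and the difference was -0.17 (SE 0.06, limma adjusted p = 0.293). Mrpl46, a mitochondria-specific large subunit protein, had 6.28, 6.57, 6.33 and 6.68 in knockout CR, against 6.56, 6.59, 6.91 and 6.77 in knockout control. The groups overlapped, and the difference was -0.24 (SE 0.10, limma adjusted p = 0.379). Mrpl22, whose bacterial counterpart lines the exit tunnel of the ribosome, ran the other way. It had 5.91, 5.59, 6.03 and 5.59 in knockout CR, against 5.69, 5.59, 5.38 and 5.28 in knockout control. The groups overlapped, and the difference was 0.29 (SE 0.11, limma adjusted p = 0.307).

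In the wildtype mice, 61 of 77 members or 79.2% had a higher mean on CR than on control diet, against 62.3% of all genes tested, and the median difference was 0.07 over members and 0.04 over all genes. No member passed the adjusted p of 0.05 in limma, against 0.124% of all genes, and the smallest adjusted p of a member was 0.212. At an unadjusted p under 0.05, 10 members were higher on CR, or 13%, against 9.72% of all genes, and 0 were lower, against 3.4%. Groups without overlap were found for 14 members that were higher, or 18.2%, against 9.55% of all genes, and for 1 that was lower, Mrpl57, against 2.95%. This comparison shares its 3 wildtype control arrays with that of knockout and wildtype on control diet. Without wildtype control 3, 51 members or 66.2% had a higher mean on CR, against 55.3% of all genes. There 4 were higher and 1 lower at an unadjusted p under 0.05, against 4.84% and 3.65% of all genes. Without the 4 arrays that carried transcripts of another tissue, the median difference was 0.06 over members and 0.02 over all genes. The tendon list was lower on CR, at -0.67 to 0.10, than on control diet, at 0.29 to 0.51. The pancreas list was also lower on CR, at -0.13 to 0.15, than on control diet, at 0.63 to 7.37, and the skeletal muscle list was higher, at 0.02 to 0.05 on CR, against -0.14 to -0.05. The part of these lists in the result was not tested.

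Mrps2 had 8.0, 7.97, 7.99 and 7.94 in wildtype CR, against 7.85, 7.85 and 7.67 in wildtype control. The CR arrays were close together and all above the control arrays. The difference was 0.18 (SE 0.06, limma adjusted p = 0.212). Mrpl15 had 8.27, 8.29, 8.27 and 8.31 in wildtype CR, against 8.15, 8.05 and 7.99 in wildtype control, again without overlap. The difference was 0.22 (SE 0.07, limma adjusted p = 0.217). Mrpl2, whose bacterial counterpart lies near the peptidyl transferase centre, had the largest difference among members, 0.28 (SE 0.10, limma adjusted p = 0.244). Its values were 7.72, 7.67, 7.62 and 7.62 in wildtype CR, against 7.31, 7.43 and 7.39 in wildtype control, and the groups did not overlap. Mrpl23, another protein with a bacterial counterpart at the exit tunnel, had 10.31, 10.45, 10.30 and 10.44 in wildtype CR, against 10.21, 10.23 and 10.01 in wildtype control. The difference was 0.22 (SE 0.09, limma adjusted p = 0.316), without overlap. Mrps28, of the small subunit, had 7.44, 7.66, 7.44 and 7.51 in wildtype CR, against 7.40, 7.26 and 7.27 in wildtype control. These groups did not overlap, although wildtype CR 1 and wildtype control 1 were close, and the difference was 0.20 (SE 0.07, limma adjusted p = 0.258).

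**Figure D4:**
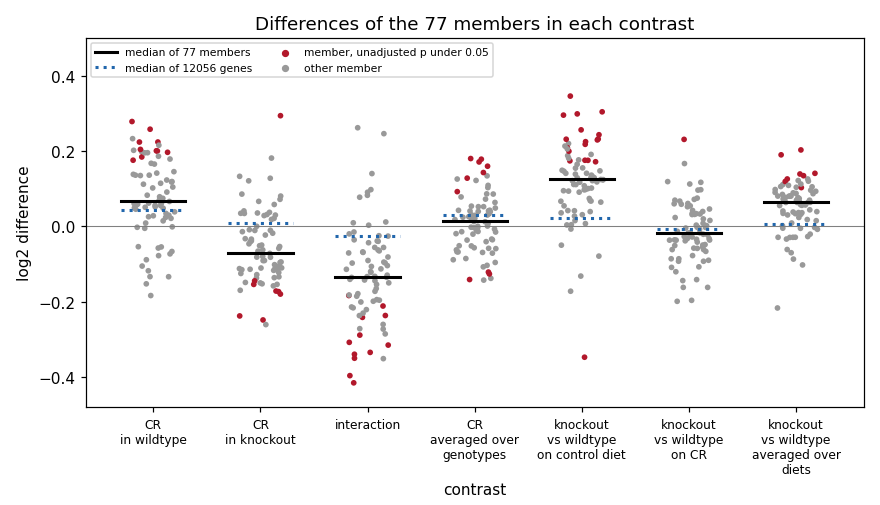
Log2 difference (y axis) of each of the 77 members in the 7 contrasts (x axis), with red points for members at an unadjusted p under 0.05, a black line for the median of members and a dotted blue line for the median of the 12056 genes tested. The interaction is CR minus control in knockout minus the same in wildtype. Medians of members are 0.12 for knockout against wildtype on control diet and -0.13 for the interaction, with all genes at 0.02 and -0.03.

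The interaction asks whether the difference that CR made was the same in both genotypes, as the CR difference in knockout minus that in wildtype. It was below 0 for most members: 10 of 77, or 13%, were above 0, against 43.1% of all genes tested, and the median was -0.13 over members and -0.03 over all genes. No member and no other gene passed the adjusted p of 0.05 in limma (0% of genes tested), and the smallest adjusted p of a member was 0.828. At an unadjusted p under 0.05, 12 members were below 0, or 15.6%, against 4.39% of all genes, and 0 were above 0, against 1.33%. Without knockout control 3, 18 members or 23.4% were above 0, against 44.2% of all genes. There 4 of 77 members had an unadjusted p under 0.05, all below 0, against 3.29% of all genes, a share near theirs. Without wildtype control 3, 16 members or 20.8% were above 0, against 48% of all genes. There 7 had an unadjusted p under 0.05, all below 0, against 3.39% of all genes. That count, all below 0, was 19 without knockout control 1, against 6.2% of all genes. It was 7 without knockout CR 2, against 3.72%, and 4 without knockout CR 3, against 3.39%. It was 6 without wildtype CR 1, against 3.47%, 5 without wildtype CR 2, against 3.28%, and 6 after quantile normalization, against 3.61%. The 10 members above 0 were Mrpl20, Mrpl22, Mrpl28, Mrpl35, Mrpl41, Mrpl47, Mrps12, Mrps14, Mrps17 and Mrps36, with unadjusted p values from 0.143 to 0.986 in limma's fit. Of the 6 slow fibre genes, 6 had an interaction above 0. Their median was 0.40, and none had an unadjusted p under 0.05. The part of the slow fibre list in the result was not tested.

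Mrps11, the counterpart of a bacterial small subunit protein, had 6.73, 6.79, 6.61 and 6.73 in knockout CR, 6.77, 6.88, 7.06 and 6.78 in knockout control, 6.83, 6.96, 6.80 and 6.71 in wildtype CR, and 6.63, 6.49 and 6.77 in wildtype control. The CR arrays were mostly below the control arrays in the knockout and mostly above them in the wildtype, with overlap in both. The interaction was -0.35 (SE 0.12, limma adjusted p = 0.828). Mrps18b, a small subunit paralog of the bacterial S18 family, had 8.84, 8.48, 8.48 and 8.59 in knockout CR, 8.94, 8.75, 9.03 and 8.66 in knockout control, 8.79, 8.76, 8.51 and 8.81 in wildtype CR, and 8.45, 8.70 and 8.50 in wildtype control. Both genotypes overlapped between diets, and the interaction of -0.42 was the lowest of all members (SE 0.16, limma adjusted p = 0.828). For Mrpl50, with 7.87, 7.88, 7.78 and 8.01 in knockout CR and 7.95, 8.0, 7.75 and 7.91 in wildtype CR beside the control values above, the interaction was -0.32 (SE 0.12, limma adjusted p = 0.828). The diets overlapped in knockout mice and did not in wildtype mice. Mrpl15 and Mrps28 had interactions of -0.24 each (SE 0.10 each, limma adjusted p = 0.828 and 0.831). Mrpl46, which shares its start region with Mrps11, had an interaction of -0.34 (SE 0.15, limma adjusted p = 0.851).

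On CR, knockout and wildtype mice were closer to each other. Of the 77 members, 30 or 39% had a higher mean in knockout CR than in wildtype CR, against 46.7% of all genes tested, and the median difference was -0.02 over members and -0.01 over all genes. After quantile normalization 58.4% of members were higher in the knockout, against 52.3% of all genes, and the median was 0.02, so no direction can be given. No member passed the adjusted p of 0.05 in limma, against 0.0166% of all genes. At an unadjusted p under 0.05, 1 member was higher in the knockout, or 1.3%, against 2.58% of all genes, and 0 were lower, against 3.34%. Groups without overlap were found for 1 member that was higher, Mrpl55, against 1.84% of all genes, and for 1 that was lower, Mrps34, against 2.76%. These shares of members were no higher than those of all genes tested. The count at an unadjusted p under 0.05 was 0 without knockout CR 3. It was 4 without knockout CR 4, all lower, against 3.2% of all genes.

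The member at an unadjusted p under 0.05 on CR was Mrps36, the one now assigned to the alpha-ketoglutarate dehydrogenase complex. It had 7.22, 6.83, 7.21 and 7.22 in knockout CR, 7.23, 7.26, 7.30 and 7.11 in knockout control, 6.81, 7.05, 6.93 and 6.78 in wildtype CR, and 7.10, 6.98 and 7.15 in wildtype control. All knockout arrays except knockout CR 2 were above all wildtype CR arrays. Knockout minus wildtype was 0.23 on CR (SE 0.09, limma adjusted p = 0.800) and 0.15 on control diet (SE 0.10, limma adjusted p = 0.801). CR minus control was -0.10 in the knockout (SE 0.09, limma adjusted p = 0.677) and -0.18 in the wildtype, the lowest of all members there (SE 0.10, limma adjusted p = 0.438). Its other probe set gave 0.20 and 0.16 for knockout minus wildtype, on CR and on control diet, and -0.15 and -0.18 for CR minus control, in knockout and in wildtype.

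Other members with the smallest p on CR were Mrpl24, Mrpl46, Mrps31 and Mrps34. Mrpl24, whose bacterial counterpart lies at the exit tunnel, had 7.10, 6.97, 6.72 and 7.08 in knockout CR, against 7.06, 7.23, 7.10 and 7.13 in wildtype CR. Knockout CR 3 was the lowest array, the groups overlapped, and the difference was -0.16 (SE 0.08, limma adjusted p = 0.842). Mrps34, a mitochondria-specific small subunit protein, had 7.15, 7.02, 7.19 and 7.09 in knockout CR, against 7.48, 7.33, 7.22 and 7.20 in wildtype CR. Its groups did not overlap, by a margin of nearly equal values, and the difference was -0.20 (SE 0.12, limma adjusted p = 0.887). Mrps31 and Mrpl46 overlapped between genotypes, with differences of -0.16 (SE 0.09, limma adjusted p = 0.868) and -0.20 (SE 0.10, limma adjusted p = 0.864).

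**Figure D5:**
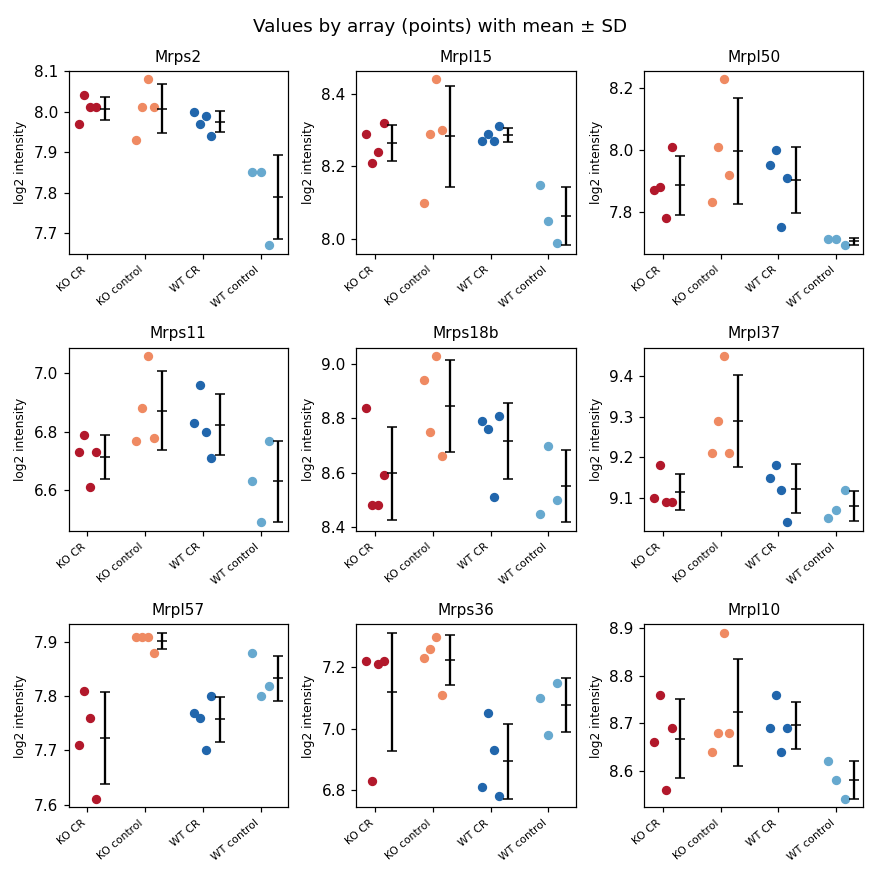
Log2 intensity (y axis) on each array (points) by group (x axis; KO, knockout; WT, wildtype) for 9 members, with the mean and SD of each group beside the points. Mrps2, Mrpl15 and Mrpl50 are higher in wildtype CR than in wildtype control without overlap, Mrpl57 is highest in knockout control, and Mrps36 is higher on all knockout arrays except knockout CR 2, at 6.83, than on any wildtype CR array.

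Averaged over genotypes, 42 of 77 members or 54.5% had a higher mean on CR, against 59.5% of all genes tested, and the median difference was 0.01 over members and 0.03 over all genes. With each array centred on its median it was 44.2% of members, against 52.6% of all genes, and the median over members turned to -0.01. No member passed the adjusted p of 0.05 in limma, whereas 1.07% of all genes did, and 10 members had an unadjusted p under 0.05. Of these, 7 were higher on CR, or 9.09%, against 13.7% of all genes, and 3 were lower, or 3.9%, against 6.4%, so both shares were below those of all genes. The count was 6 without wildtype control 3, 6 without wildtype CR 1, 6 after centring, and 4 without the 4 arrays that carried transcripts of another tissue. The skeletal muscle list differed between the diets in both genotypes, as given above, and its part in these values was not tested. Mrpl57 had the smallest adjusted p of any member in any of the 7 contrasts, 0.113 in limma, with a difference of -0.13 (SE 0.04). It averaged 7.72 ± 0.09 in knockout CR, 7.90 ± 0.01 in knockout control, 7.76 ± 0.04 in wildtype CR and 7.83 ± 0.04 in wildtype control (SD). Mrpl23 differed by 0.18 (SE 0.06, limma adjusted p = 0.148), and Mrpl30, also with a bacterial counterpart, by 0.13 (SE 0.05, limma adjusted p = 0.176). Averaged over diets, 61 of 77 members or 79.2% had a higher mean in the knockout, against 53.2% of all genes, with a median of 0.06 over members and 0.01 over all genes. No member and no other gene passed limma's adjusted p of 0.05 (0% of genes tested), and 8 members had an unadjusted p under 0.05. All 8 were higher in the knockout, or 10.4%, against 4.33% of all genes, and 0 were lower, against 2.85%. The count was 14 without knockout control 1, all higher, against 6.63% of all genes. It was 5 without knockout control 3 and 5 without wildtype CR 3, all higher, against 4.11% and 4.24%. It was 14 after quantile normalization and 4 after centring, all higher, against 5.07% and 2.83%. With array weights 12 were higher and 1 lower, against 4.71% and 5.26%. Without the 2 arrays with germ cell transcripts it was also 12 and 1, against 4.21% and 4.66%. Without the 4 arrays the median was 0.04 over members and -0.002 over all genes. Mrps2 differed by 0.13 (SE 0.04, limma adjusted p = 0.619), Mrps36 by 0.19 (SE 0.07, limma adjusted p = 0.645) and Mrps15, the counterpart of a bacterial small subunit protein, by 0.12 (SE 0.05, limma adjusted p = 0.645).

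Mrpl10, the reported SIRT3 substrate, had 8.66, 8.76, 8.56 and 8.69 in knockout CR, 8.64, 8.68, 8.89 and 8.68 in knockout control, 8.69, 8.76, 8.64 and 8.69 in wildtype CR, and 8.62, 8.58 and 8.54 in wildtype control. Wildtype control arrays were the lowest of the 4 groups apart from knockout CR 3, and knockout control 3 was the highest array. On control diet the knockout and wildtype groups did not overlap, with a difference of 0.14 (SE 0.07, limma adjusted p = 0.733), and on CR they overlapped, with a difference of -0.03 (SE 0.06, limma adjusted p = 1.00). CR minus control was -0.05 in the knockout (SE 0.06, limma adjusted p = 0.760) and 0.11 in the wildtype (SE 0.07, limma adjusted p = 0.491). These are RNA values, and the acetylation of the protein was not measured. Mrpl12, its stalk partner, had 8.11, 8.62, 8.34 and 8.43 in knockout CR, 8.19, 8.39, 8.57 and 8.28 in knockout control, 8.42, 8.45, 8.48 and 8.36 in wildtype CR, and 8.12, 8.32 and 8.14 in wildtype control. The knockout CR arrays held both the lowest and the highest value of all arrays, 8.11 and 8.62. The wildtype CR arrays were all above the wildtype control arrays. CR minus control was 0.02 in the knockout (SE 0.10, limma adjusted p = 0.958) and 0.23 in the wildtype (SE 0.11, limma adjusted p = 0.390).

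The 3 paralogs of the S18 family did not share one pattern. Mrps18c, of the small subunit, averaged 7.13 ± 0.27 in knockout CR, 7.17 ± 0.19 in knockout control, 7.17 ± 0.07 in wildtype CR and 7.13 ± 0.11 in wildtype control (SD). Its group means lay within the spread between mice. Mrps18a, of the large subunit, averaged 8.37 ± 0.08 in knockout CR, 8.49 ± 0.14 in knockout control, 8.43 ± 0.11 in wildtype CR and 8.48 ± 0.07 in wildtype control (SD), with CR minus control of -0.12 in the knockout (SE 0.08, limma adjusted p = 0.576) and -0.05 in the wildtype (SE 0.08, limma adjusted p = 0.789). Mrps18b averaged 8.60 ± 0.17 in knockout CR, 8.85 ± 0.17 in knockout control, 8.72 ± 0.14 in wildtype CR and 8.55 ± 0.13 in wildtype control (SD). Knockout minus wildtype for Mrps18b was 0.29 on control diet (SE 0.11, limma adjusted p = 0.662) and -0.12 on CR (SE 0.11, limma adjusted p = 0.932).

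By place in the ribosome, 50 members belonged to the large subunit, 26 to the small subunit and 1, Mrps36, to neither. For knockout minus wildtype on control diet the median was 0.12 over the large subunit, with 46 of 50 above 0, and 0.15 over the small subunit, with 24 of 26 above 0. The interaction had medians of -0.12 over the large subunit, with 6 of 50 above 0, and -0.18 over the small subunit, with 3 of 26 above 0. The members classed as mitochondria-specific included Mrps18a and Mrps18b, although both are paralogs of the S18 family. Mrps18b had the lowest interaction of all members, -0.42. Among small subunit members of this class, 0 of 10 had an interaction above 0 and the median was -0.26. It was 3 of 16 and -0.12 for those with a bacterial counterpart. Of these mitochondria-specific small subunit members, 1 of 10 had a higher mean on CR in the knockout, with a median difference of -0.10, and 10 of 10 did in the wildtype, with a median of 0.14. Of the mitochondria-specific large subunit members, 2 of 19 had a higher mean on CR in the knockout and 13 of 19 in the wildtype. Large subunit members with a bacterial counterpart had 12 of 30 above 0 in the knockout and 23 of 30 in the wildtype. No test of a difference between these classes was made.

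The members varied together within groups as well as between them. Over pairs of members, the mean correlation of deviations from group means across the 15 arrays was 0.279, against 0.034 over pairs of all genes tested, as a description of values that share arrays. Without knockout control 3 it was 0.216 over members and 0.038 over all genes. Correlation of a member with the mean of the other members over the 15 arrays was highest for Mrpl9, at 0.905, Mrps24, at 0.901, and Mrpl50, at 0.895. It was below 0 for Mrpl22, Mrps6, Mrpl57, Mrps10, Mrpl52, Mrpl39 and Mrpl20, with -0.474 for Mrpl22, -0.377 for Mrps6 and -0.207 for Mrpl57. For CR in the knockout, Mrpl22 was higher and Mrps6 and Mrpl57 were lower at an unadjusted p under 0.05 in limma. Mrps10, Mrpl52, Mrpl39 and Mrpl20 were not at that p. Of all members, 1.3% were higher and 9.09% lower at it, against 6.79% and 5.17% of all genes. Equal values on at least 2 arrays occurred in 34 members, or 44.2%, against 37.2% of all genes tested. 8 members had more than 1 probe set. For Mrpl47, a large subunit protein, they went apart: CR minus control in the knockout was 0.18 for the probe set used and -0.22 for the other. The interaction of Mrpl47 was 0.003 for the probe set used and -0.22 for the other. The Mrpl41 probe sets also went apart. Knockout minus wildtype on control diet was 0.11 for the one used and -0.05 for the other. Both Mrpl23 probe sets gave 0.13 for CR minus control in the knockout.

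Genes that act with the mitochondrial ribosome were read from lists written with earlier results of these data known. Over all genes tested, 57.6% had a higher mean in knockout than wildtype on control diet and 43.1% had an interaction above 0, and in the interaction 4.39% were below 0 and 1.33% above 0 at an unadjusted p under 0.05. Of the 6 tested proteins of the ribosome with other symbols, 6 had a higher mean in knockout than wildtype on control diet and 0 had an interaction above 0, with medians of 0.15 and -0.25, and none passed limma's adjusted p of 0.05 in any contrast (3 had an unadjusted p under 0.05 in the interaction). Chchd1, a small subunit protein, had an interaction of -0.30 (SE 0.12, limma adjusted p = 0.828), and Ptcd3, another, had -0.30 (SE 0.12, limma adjusted p = 0.831). Of the 21 tested assembly factors, 15 had a higher mean in knockout on control diet and 5 had an interaction above 0, beside 57.6% and 43.1% of all genes. Again none passed, and 1 had an unadjusted p under 0.05 in limma's interaction, a share near that of all genes. That gene was Noa1, a GTPase needed for assembly of the small subunit. It had 7.41, 7.39, 7.30 and 7.28 in knockout CR, 7.38, 7.52, 7.58 and 7.5 in knockout control, 7.51, 7.38, 7.37 and 7.41 in wildtype CR, and 7.26, 7.33 and 7.09 in wildtype control. CR arrays lay above control arrays without overlap in the wildtype, and mostly below them in the knockout. The interaction of Noa1 was -0.34 (SE 0.10, limma adjusted p = 0.779), and that of Fastkd2, an RNA-binding protein of large subunit assembly, was -0.29 (SE 0.17, limma adjusted p = 0.877).

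Of 14 tested translation factors, 12 had a higher mean in knockout on control diet and 4 had an interaction above 0, beside 57.6% and 43.1% of all genes, with none past limma's adjusted p of 0.05 and 3 at an unadjusted p under 0.05 and below 0 in the interaction, beside 4.39% of all genes. Mtif2, the initiation factor, had an interaction of -0.29 (SE 0.11, limma adjusted p = 0.828). Taco1, a translational activator of cytochrome c oxidase subunit I, had -0.59 (SE 0.23, limma adjusted p = 0.828), and its highest value, 7.96, was on knockout control 3. Of 16 tested genes for the expression of mitochondrial DNA and its regulators, 11 had a higher mean in knockout on control diet and 4 had an interaction above 0, beside the same 57.6% and 43.1% of all genes. None passed the adjusted threshold, and 3 had an unadjusted p under 0.05 in limma's interaction. Ssbp1, the mitochondrial single-stranded DNA binding protein, had an interaction of -0.32 (SE 0.10, limma adjusted p = 0.824), and Gabpb1, a subunit of the factor that binds through GABPA, had -0.26 (SE 0.10, limma adjusted p = 0.828). Only 2 messenger RNAs of mitochondrial DNA were named on the array. COX2 spanned 12.53 to 12.58 in knockout CR, 12.51 to 12.69 in knockout control, 12.50 to 12.67 in wildtype CR and 12.56 to 12.71 in wildtype control. ND3 differed by -0.09 with CR in the knockout (SE 0.07, limma adjusted p = 0.624) and by -0.11 in the wildtype (SE 0.08, limma adjusted p = 0.544), and its groups overlapped.

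1 gene of these lists passed, for CR averaged over genotypes, where 1.07% of all genes tested passed. Mars2, the mitochondrial methionyl-tRNA synthetase, had 6.70, 6.87, 6.84 and 6.74 in knockout CR, 6.49, 6.55, 6.70 and 6.61 in knockout control, 6.77, 6.81, 6.72 and 6.63 in wildtype CR, and 6.53, 6.56 and 6.45 in wildtype control. In both genotypes the CR arrays were higher, touching at 6.70 in the knockout and not overlapping in the wildtype. Averaged over genotypes Mars2 rose by 0.21 on CR (SE 0.05, limma adjusted p = 0.0497), just inside the threshold of 0.05. The direction was the same in all 26 alternative fits, but the call was lost in 21 of them, including each of the 15 that left out 1 array, and the adjusted p ranged from 0.0332 to 0.273. It was 1 of 15 tested mitochondrial aminoacyl-tRNA synthetases. Averaged over genotypes, 8 of the 15 had a higher mean on CR, beside 59.5% of all genes. In that contrast the list was not above the share of all genes. On control diet 14 of the 15 had a higher mean in knockout, and 1 had an interaction above 0, beside 57.6% and 43.1% of all genes. None passed limma's adjusted p of 0.05 there. In the interaction 1 had an unadjusted p under 0.05 and was below 0, beside 4.39% of all genes.

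3 other families of 34 to 57 tested genes were set beside the members, chosen after values had been seen. On knockout control 3 the median deviation was 0.18 over the members, 0.26 over 34 tested subunits of respiratory complex I, -0.08 over 57 cytosolic ribosomal proteins and 0.04 over 37 proteasome subunits. That array held the highest value for 45.5% of the members, 70.6% of the complex I subunits, 1.75% of the cytosolic ribosomal proteins and 8.11% of the proteasome subunits. Knockout minus wildtype on control diet was above 0 in a large share of each, 92.2% of the members, 94.1% of the complex I subunits, 91.2% of the cytosolic ribosomal proteins and 89.2% of the proteasome subunits, all with the same 3 wildtype control arrays. Interactions were above 0 in 13% of the members, 41.2% of the complex I subunits, 10.5% of the cytosolic ribosomal proteins and 8.11% of the proteasome subunits. CR in the knockout was above 0 in 26% of the members, 41.2% of the complex I subunits and 29.7% of the proteasome subunits. It was above 0 in 89.5% of the cytosolic ribosomal proteins and 53% of all genes tested. No test of a difference between families was made.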

How the data were processed

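RNA from the gastrocnemius of 15 mice was measured on Affymetrix arrays, and the deposited table holds log2 intensities that the authors processed with RMA, per the submitters' processing notes; the sources used here give no version. Array medians spanned 5.40 to 5.48, and no further normalization was applied. Precision is limited by the number of arrays. No scan date or slide was given, so no batch could be tested. Of 35556 probe sets, 21789 had 1 gene symbol in the platform annotation, 1621 had several and 12146 were not listed. All 77 members matched the RefSeq table by Entrez identifier. Genes with a mean under the 40th percentile of listed probe sets, 5.32, were left out.

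The linear model (limma 3.58.1, R 4.3.3; lmFit, eBayes) had 1 mean per group over all 15 arrays, with 7 two-sided contrasts and Benjamini-Hochberg adjustment over all 12056 genes tested, at a threshold of 0.05. SE is limma's moderated standard error, and SD is that between mice. Sirt3 was tested by exact permutation. The fit was tested on simulated data. Figures were drawn with matplotlib 3.10.9.

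The members and all lists were chosen with earlier results of these data known. Named were, for the 5 simple contrasts, the 5 members with the smallest p (no member passed the threshold), for the 2 averaged contrasts the 3 with the smallest p, always Mrpl10, Mrpl12, Mrps18a, Mrps18b, Mrps18c and Mrps36, and in each other list up to 4 genes past the threshold, otherwise the 2 with the smallest p of the interaction. Names given for counts, such as members without overlap, were chosen after values were seen. Across groups, same-numbered arrays were compared by the correlation of their deviations from group means: of 21 pairs, 7 were over 0.1, with a range of -0.637 to 0.503, so the numbers were not taken to pair the mice. Alternatives tried were the filter, the probe set rule, quantile normalization, centring, the variance prior, the arrays fitted, array weights, a replicate block, leaving out each array, and leaving out arrays with transcripts of another tissue.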

Additional observations from a re-analysis of the deposited data

Results flagged for a closer look

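Among 75 checks of a named gene within a group of 4 arrays, 9 had 1 array far from the other 3, where chance gives about 1 in 20. Mrps36 stood at 6.83 on knockout CR 2, against 7.21 to 7.22 on the other knockout CR arrays, and this is the array that overlaps wildtype CR. Mrpl37 stood at 9.18 and Mrpl23 at 10.46 in knockout CR, on replicate 2 and replicate 4. In knockout control, Mrps18a stood at 8.28 on replicate 1, Mrps28 at 7.62 on replicate 2 and Mrpl57 at 7.88 on replicate 4. The Mrpl57, Mrps28, Mrps15 and Mrpl23 cases had other arrays that were nearly or exactly equal, so a small step was enough. In wildtype CR, Mrps18c stood at 7.27 on replicate 1, Mrps18b at 8.51 on replicate 3 and Mrps15 at 9.30 on replicate 4. The reasons for these single values were not tested.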

How the results depend on the processing

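No member passed limma's adjusted p of 0.05 in any of the 7 contrasts under any of the 27 alternative fits, 15 that each left out 1 array and 12 others, and all 824 alternative values of the 31 results for named members kept their direction and their side of the threshold. In all of these fits the median difference over members moved by less than 0.0691. That is the SD within groups, pooled, of the members' median deviation per array. Some medians were smaller than this SD, such as 0.067 for CR in the wildtype and 0.063 averaged over diets. Staying within it therefore does not show that a median was stable. The median turned sign for CR averaged over genotypes (-0.03 to 0.04) and for knockout against wildtype on CR (-0.05 to 0.02). The share of all genes at an unadjusted p under 0.05 also moved. In the interaction, 4.39% of all genes were below 0 at that p in the main fit. It was 3.29% and 3.39% in the fits with the lowest count of members, without knockout control 3 and without knockout CR 3. The count of members at an unadjusted p under 0.05 moved more than the median. For knockout against wildtype on control diet it was 18 and became 7 with only the groups compared, all higher, against 2.85% of all genes. It ranged from 8 to 24 when 1 array was left out. The 8 came without knockout control 3 and the 24 without knockout control 1. In both all were higher, against 3.72% and 8.17% of all genes. For the interaction it was 12 and ranged from 4 to 19. After quantile normalization it was 6, all below 0, against 3.61% of all genes. For CR in the knockout it was 8 and ranged from 2 to 9. The 2 found without knockout CR 3 were lower, against 3.6% of all genes. For CR in the wildtype it was 10 and ranged from 5 to 13. The 5 came without wildtype control 3, 4 higher and 1 lower, against 4.84% and 3.65% of all genes. Without the 2 arrays with germ cell transcripts it was 6, 5 higher and 1 lower, against 5.71% and 4.46%. For knockout against wildtype on CR it was 1 and ranged from 0 to 4. It became 2 with the filter at the 60th percentile, 2 after centring and 2 with only the groups compared. With array weights it was 3, 1 higher and 2 lower, against 4.45% and 6.64% of all genes. Averaged over genotypes, CR had 10 and ranged from 6 to 12. After centring it had 6, 1 higher and 5 lower, against 8.98% and 8.07% of all genes. Averaged over diets, knockout against wildtype had 8 and ranged from 5 to 14. It had 14 after quantile normalization, 4 after centring, 13 with array weights and 13 without the 2 arrays. The shares of all genes in these 4 fits are given above. With the replicate number as a replicate block the count was 5 for CR in the knockout and 5 for the interaction, and the block changed no call. Without the 4 arrays that carried transcripts of another tissue, wildtype control holds 1 array, assumed to vary like the other groups. Counts at an unadjusted p are therefore not given for that fit. That array, wildtype control 1, had the liver list at 1.75 and the pancreas list at 0.63. Mars2 kept its direction but lost its call in 21 of 26 fits, with adjusted p values from 0.0332 to 0.273. The causes of these moves were not tested.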
